A study of Mus musculus with 9 samples.

Results

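The genes described here are the ligand Igf1, the receptors Igf1r and Igf2r, and 6 insulin-like growth factor binding proteins, Igfbp2 to Igfbp7. They were listed by name, with no threshold on their values, and are 9 of the 23420 genes in the deposited count tables. RNA was sequenced from mesenchymal cells, the connective tissue cells that support an organ, of C57BL/6 mice that were 3 to 4 weeks old. There were 3 libraries from each of thymus, bone (femur, tibia and pelvis) and truncal skin (dermis of back and abdomen). The labels name no mutation and no treatment for any group. All cells were sorted as SCA1+ and negative for a lineage cocktail of antibodies (Lin-) against blood, endothelial and epithelial cells, with at least 25000 cells per sample for thymus and bone. The labels do not say whether animals were pooled, and how the skin cells were isolated was not given in the sources used here.

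Insulin-like growth factors (IGFs) are secreted hormones that act both through the blood and between neighbouring cells. Igf1 and its relative Igf2 activate the tyrosine kinase receptor encoded by Igf1r, which signals through the IRS adaptors to PI3K and AKT. The receptor encoded by Igf2r sends no such signal. It carries Igf2 into the cell for breakdown and also sorts enzymes tagged with mannose 6-phosphate to lysosomes. Outside the cell most IGF is held by binding proteins, which prolong its life, keep it from the receptor or release it when proteases such as those encoded by Pappa and Pappa2 cut them. In bone, IGFs and the binding protein Igfbp5 are stored in the matrix, and stromal IGF acts on developing lymphocytes and on fibroblasts.

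The libraries held 78757872 (bone 3) to 116759235 (skin 3) reads on genes. CPM, used to compare tissues, scales the reads of each gene by library size and TMM factor. Levels compared between genes are in the deposited RPKM, which also divides by gene length. A difference is a log2 fold change ± SE, the first tissue minus the second, and was called when the adjusted p of edgeR's quasi-likelihood test was under 0.05. All 12 mesenchymal markers were at 1 CPM or more on average in every tissue. Markers of other cells were also present, and those that moved with a member are given beside it. In such bulk samples a higher share of cells of a type and more RNA per cell cannot be told apart. One of the thymus libraries is named 1-3 with no explanation, and if it is a pool the thymus SD and p-values rest on fewer than 3 separate samples. Since no label ties a library to its own animal, the p-values reflect the spread between these samples alone, which may be technical. Relative to the libraries' sizes alone, TMM scaling lowered the thymus to skin difference of the median gene by 0.63 and the bone to skin difference by 0.69 on the log2 scale. Differences from skin below are therefore relative to the typical gene.

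Each tissue had a different leading binding protein. By RPKM, Igfbp7 led in thymus, Igfbp5 in bone and Igfbp6 in skin. In CPM, not divided by gene length, Igfbp5 was above Igfbp6 in every skin library and above Igfbp7 in thymus 1-3 and 3. Igf1 was highest in bone and Igf2r in thymus. Between thymus and bone 3 members were higher in thymus (16.5% of all 15635 genes tested were), 3 were lower (16.1%) and 3 did not pass, with 32.6% of all genes called in either direction. Between thymus and skin 4 were higher in thymus (19.3% of all genes), 4 lower (18.3%) and 1 did not pass, with 37.6% of all genes called. Between bone and skin 4 were higher in bone (23.7% of all genes), 3 lower (23.4%) and 2 did not pass, with 47.1% of all genes called. The libraries of the 2 tissues did not overlap for 7 of the 9 in each of these comparisons, against 49.4, 51.9 and 58.3% of all genes. The median size of the members' log2 differences was 0.95, 0.83 and 1.03 in those comparisons, and that of all genes 0.55, 0.63 and 0.76. Igf1, Igfbp6 and Igfbp7 were called in all 3 comparisons, as were 11.0% of all genes. Set against both other tissues by at least 2-fold in the same direction, 6 of the 9 stood apart somewhere, against 25.9% of all genes. These were Igfbp7, higher in thymus (4.05% of all genes were), Igf1 and Igfbp5, higher in bone (6.51%), and Igfbp2, Igfbp3 and Igfbp6, higher in skin (5.0%). Igfbp6 was also apart in thymus, where it was lower (3.83%).

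**Figure D1:**
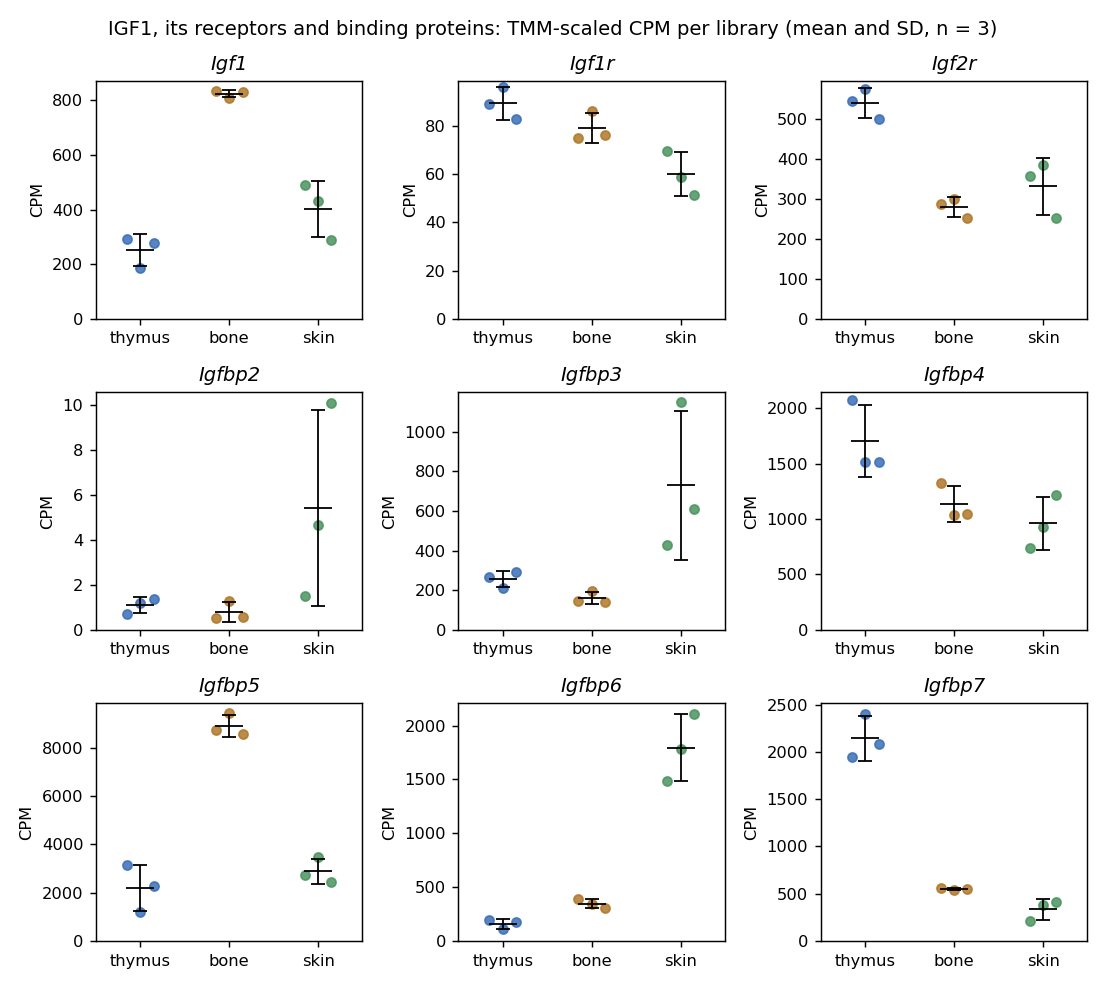
Level of each of the 9 members in CPM (linear axis from 0, a panel per gene) in the 3 thymus, 3 bone and 3 skin libraries; points are libraries and bars the mean ± SD. Igfbp7 lies at 1942 to 2405 in thymus and at 556 or less elsewhere, Igfbp5 at 8560 to 9431 in bone and at 3462 or less elsewhere, and Igfbp6 at 1486 to 2107 in skin and at 388 or less elsewhere.

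The sequences just upstream of the 3 leading binding proteins are shown because each of these genes led in a different tissue, and their upstream regions are unlike in base composition. Each is the 200 bases before the RefSeq start site in GRCm38.p6, 5′ to 3′ on the gene's strand. The windows are Igfbp7 at chr5:77408046-77408245 (minus strand), Igfbp5 at chr1:72874866-72875065 (minus strand) and Igfbp6 at chr15:102143986-102144185 (plus strand). Capitals mark matches on either strand to TATAAA, the core of the TATA box, CCAAT, the core of the CCAAT box, or GGGCGG, the GC box bound by SP1-type factors.
Igfbp7: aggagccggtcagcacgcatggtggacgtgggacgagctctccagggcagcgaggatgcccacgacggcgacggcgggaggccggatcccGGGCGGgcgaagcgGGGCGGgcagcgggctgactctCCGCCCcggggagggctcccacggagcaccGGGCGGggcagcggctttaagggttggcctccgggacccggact
Igfbp5: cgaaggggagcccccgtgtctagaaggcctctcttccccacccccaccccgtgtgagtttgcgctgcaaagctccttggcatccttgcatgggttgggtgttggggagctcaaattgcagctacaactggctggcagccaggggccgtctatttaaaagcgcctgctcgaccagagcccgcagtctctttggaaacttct
Igfbp6: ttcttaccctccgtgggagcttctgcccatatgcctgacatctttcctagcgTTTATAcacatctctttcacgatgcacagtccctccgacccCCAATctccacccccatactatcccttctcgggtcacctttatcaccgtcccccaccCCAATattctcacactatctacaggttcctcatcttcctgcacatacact
The Igfbp7 window held 75.5% G and C, 25 CpG dinucleotides and 4 GGGCGG matches. The Igfbp6 window held 51.0% G and C, 6 CpG, 2 CCAAT matches and 1 TATAAA match on the minus strand. In Igfbp5, 59.0% of the bases were G or C, there were 8 CpG and none of the 3 motifs, and 19 of the 200 bases lie in a GENCODE exon. Over the windows of the same length of all 32851 RefSeq promoters the medians were 53.0% G and C and 5 CpG. TATAAA was in 9.96% of them, CCAAT in 29.3% and GGGCGG in 31.0%. Members highest in skin also differed among themselves. The Igfbp3 window held 76.0% G and C and 29 CpG, close to Igfbp7, and the Igfbp2 windows held 70.5 and 53.5% G and C. A match is a string of letters, not a bound site, and the motifs do not overlap one another in these windows.

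Igf1, the ligand, was highest in bone. The gene lies at chr10:87859056-87937047 (mm10, plus strand). Its level was 835, 811 and 831 CPM in bone 1, 2 and 3, then 489, 433 and 289.7 in skin 1, 2 and 3, and 291, 185 and 278 in thymus 1-3, 2 and 3. Every bone library was above every other library, while thymus 1-3 lay just above skin 3, so the thymus and skin groups overlapped. Igf1 was lower in thymus than in bone by 3.29-fold (-1.72 ± 0.22, adjusted p = 8.97e-05) and higher in bone than skin (1.03 ± 0.21, adjusted p = 0.00186). It was also lower in thymus than skin (-0.68 ± 0.21, adjusted p = 0.0234), but this call did not hold without thymus 2 (-0.50, adjusted p = 0.0928), without skin 1 (-0.52, adjusted p = 0.0889) or without skin 2 (-0.63, adjusted p = 0.0768). With library size alone that difference was -0.06, which is 0.71 below the median gene there, and it was -0.12 on RPKM, neither of them called.

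Macrophages also make Igf1 in many tissues. The summed level of 11 macrophage and monocyte markers was 390 to 494 CPM in bone, 69.0 to 187 in skin and 17.7 to 69.9 in thymus. Of these markers 8 were lower in thymus than in bone, 5 were lower in thymus than in skin and 5 were higher in bone than in skin. Csf1r, the receptor that defines the lineage, was at 24.4 ± 8.19 CPM in bone, 24.7 ± 4.50 in skin and 3.43 ± 2.10 in thymus (SD, n = 3), while Emr1, Mrc1 and Fcgr1 were under 1 CPM on average in thymus. Most of the bone sum came from Lyz2 (277 ± 29.5 CPM) and Itgam (73.1 ± 8.48), which granulocytes also express. The other 9 summed to 76.0 to 142 CPM in bone and 53.9 to 134 in skin, which overlapped, and to 11.2 to 38.2 in thymus. Granulocyte markers summed to 2751 to 3818 CPM in bone and to at most 9.39 elsewhere, and 7 B cell markers to 93.9 to 129 CPM in bone and at most 4.47 elsewhere. Osteoblast and chondrocyte markers, given beside Igfbp5 below, were also highest in bone. The part of all these cells in the Igf1 levels was not tested.

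Igf1r varied least of the 9 between the tissue means. This gene, that of the signalling receptor (chr7:67952257-68233667, plus strand), was at 89.1, 96.4 and 82.8 CPM in thymus 1-3, 2 and 3, at 75.0, 86.3 and 76.4 in bone, and at 69.6, 59.0 and 51.5 in skin. Skin was below both other tissues without overlap, and thymus and bone overlapped. Igf1r was higher in thymus than skin (0.58 ± 0.14, adjusted p = 0.00587) and slightly higher in bone than skin (0.40 ± 0.14, adjusted p = 0.0304). The second call was lost without bone 2 (adjusted p = 0.109), bone 3 (0.0554), skin 2 (0.0838) or skin 3 (0.104). Thymus minus bone was 0.18 ± 0.14 and did not pass (adjusted p = 0.361).

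Igf2r, the clearing receptor for Igf2 (chr17:12682406-12769706, minus strand), was highest in thymus. It stood at 547, 576 and 501 CPM in thymus, 288, 301 and 251 in bone, and 358, 386 and 251 in skin. All thymus libraries were above all others, and bone and skin overlapped. The thymus level was higher than that of bone (0.95 ± 0.17, adjusted p = 0.00112) and of skin (0.71 ± 0.17, adjusted p = 0.00609). Bone minus skin was -0.25 ± 0.17 (adjusted p = 0.252), turned positive with library size alone (0.45, adjusted p = 0.0367) and on RPKM (0.31, not called), and was called without skin 3 (-0.41, adjusted p = 0.0336). The antisense transcript Airn overlaps Igf2r, and whether reads were counted by strand was not stated there. Airn had at most 1771 reads in a library, where Igf2r had 21789 to 68700. Of the 4 genes of mannose 6-phosphate sorting other than Igf2r, 3 were higher in thymus than in bone (16.5% of all genes) and 3 higher than in skin (19.3%), and 0 passed between bone and skin (3 with library size alone). Gnptab, which encodes a subunit of the enzyme that makes the mannose 6-phosphate tag, was at 98.3 ± 4.93, 46.8 ± 8.55 and 38.3 ± 1.62 CPM in thymus, bone and skin (thymus minus bone 1.07 ± 0.14, adjusted p = 0.00012, and thymus minus skin 1.36 ± 0.14, adjusted p = 1.68e-05). T cell markers were also highest in thymus: 8 of them summed to 57.6 to 169 CPM there, 29.6 to 38.6 in bone and at most 0.623 in skin, with 4 higher in thymus than in bone and 7 higher than in skin. Their part in the levels of Igf2r, Igfbp4 and Igfbp7, all higher in thymus, was not tested.

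Igfbp7 was the thymus binding protein of these cells. It encodes a secreted protein that binds IGF weakly, also binds insulin and collagen, and lies along small vessels (chr5:77349329-77408045, minus strand). Its level was 1942, 2405 and 2082 CPM in thymus 1-3, 2 and 3, 556, 542 and 554 in bone, and 207, 379 and 416 in skin. The 3 tissues did not overlap, and the SD over the bone libraries was only 7.33 CPM. Thymus was above bone by 3.89-fold (1.96 ± 0.23, adjusted p = 5.21e-05) and above skin by 6.42-fold (2.68 ± 0.24, adjusted p = 4.69e-06). Bone was above skin (0.72 ± 0.22, adjusted p = 0.0191), a call at the edge of the threshold without bone 1 (0.71, adjusted p = 0.0505). By mean RPKM it was the 12th of 17416 genes listed above 0 in thymus, against 51st in bone and 206th in skin.

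Vessel wall cells are a known source of Igfbp7. The 8 mural markers summed to 1122 to 1431 CPM in thymus, against 383 to 400.4 in bone and 156 to 203 in skin. Of them 5 were higher and 2 lower in thymus than in bone, and 7 were higher and 0 lower in thymus than in skin. Most of the thymus sum came from Des (691 ± 140.1 CPM) and Abcc9 (375 ± 44.2). The other 6 summed to 327 to 360.5 CPM in bone, 201 to 258 in thymus and 39.4 to 120 in skin. Without Des and Abcc9 bone was thus highest, and most of its sum came from Cspg4 and Rgs5. Cspg4, a pericyte gene, was at 23.8 ± 3.28 CPM in thymus and 212 ± 19.9 in bone, and Rgs5, another, was at 72.2 ± 7.28 CPM in bone against 15.3 ± 4.53 in thymus and 0.674 ± 0.324 in skin. Myh11, of smooth muscle, was at 37.6 ± 0.768, 4.64 ± 2.05 and 1.31 ± 1.01 CPM in thymus, bone and skin. Tagln (75.3 ± 17.1, 13.9 ± 0.481 and 11.0 ± 9.80), Mcam (27.0 ± 2.98, 8.91 ± 4.37 and 3.06 ± 0.770) and Acta2 (58.2 ± 14.5, 32.0 ± 8.13 and 41.6 ± 35.3) were also highest in thymus on average. Endothelial markers summed to 251 to 348 CPM in skin, 68.2 to 105 in thymus and 66.6 to 85.4 in bone. Most of the skin sum came from Tek (236 ± 39.3 CPM) and Kdr (39.6 ± 8.42). Of the 8 endothelial markers, thymus exceeded skin for 2 and fell below it for 2. Bone exceeded skin for 3 and fell below it for 2. The high skin sum therefore does not stand for all of these markers. The part of these cells in the Igfbp7 levels was not tested.

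Igfbp5 was the bone binding protein. It is a secreted protein that sticks to matrix and bone mineral and is made by osteoblast-lineage cells and fibroblasts (chr1:72858065-72874865, minus strand). Its level was 8727, 9431 and 8560 CPM in bone 1, 2 and 3, 2744, 3462 and 2441 in skin, and 3124, 1204 and 2267 in thymus 1-3, 2 and 3. Bone stood apart from both tissues, and thymus and skin overlapped, with thymus 2 the lowest library of all. Igfbp5 was lower in thymus than in bone by 4.05-fold (-2.02 ± 0.29, adjusted p = 0.000291) and higher in bone than skin (1.63 ± 0.29, adjusted p = 0.000759). Thymus minus skin was -0.39 ± 0.28 (adjusted p = 0.309), and turned positive, still uncalled, with library size alone (0.24) and on RPKM (0.07). Skeletal markers moved with it: the 8 osteoblast markers summed to 536 to 1202 CPM in bone and at most 30.6 elsewhere. The 8 chondrocyte markers summed to 30439 to 45873 CPM in bone, almost all from Prg4, and at most 51.3 elsewhere, and 5 of them were under 1 CPM in thymus and in skin. The part of skeletal cells, and of the blood cells named beside Igf1, in the Igfbp5 level was not tested.

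Igfbp2, a binding protein of embryonic and fat tissue, is the neighbour of Igfbp5, 5593 bases away on chromosome 1 (chr1:72824480-72852471, plus strand), and was the scarcest of the 9. It was at 0.505, 1.29 and 0.564 CPM in bone, 0.696, 1.18 and 1.38 in thymus, and 1.51, 4.67 and 10.1 in skin. Skin was above both other tissues without overlap, and its 3 libraries spread widely, with skin 3 the highest. The gene was lower in thymus than skin (-2.32 ± 0.69, adjusted p = 0.0196) and lower in bone than skin (-2.78 ± 0.70, adjusted p = 0.00659). Without skin 3 neither call held (-1.51, adjusted p = 0.154, and -1.97, adjusted p = 0.0564), and the first was also lost without thymus 1-3 (-2.09, adjusted p = 0.0713). With library size alone the first was -1.67 (adjusted p = 0.066), and on RPKM it was -0.89 (adjusted p = 0.0571). Thymus minus bone was 0.47 ± 0.66 and did not pass (adjusted p = 0.642). In the read counts Igfbp2 had 52 to 876 reads a library, so its level was measurable in each.

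Igfbp6 was the skin binding protein, and had the largest difference of the 9. Its product binds Igf2 in preference to Igf1 (chr15:102144186-102149512, plus strand). Its level was 1486, 1785 and 2107 CPM in skin 1, 2 and 3, 388, 346 and 301 in bone, and 198, 108 and 175 in thymus 1-3, 2 and 3. The tissues fell in separate ranges in the order skin, bone, thymus. It was lower in thymus than in skin by 11.2-fold (-3.48 ± 0.24, adjusted p = 7.57e-07), lower in bone than skin (-2.38 ± 0.23, adjusted p = 8.16e-06) and also below bone in thymus (-1.11 ± 0.22, adjusted p = 0.00242). All 3 calls held in each of the 20 alternative analyses. The 8 epithelial and keratinocyte markers summed to 19.5 to 66.6 CPM in skin, 10.6 to 15.1 in thymus and 1.08 to 2.30 in bone. Of them 4 were lower and 2 higher in thymus than in skin, and 7 were lower in bone than in skin. Krt8 and Krt18 were highest in thymus, at 3.19 ± 1.45 and 2.57 ± 0.562 CPM against 0.0882 ± 0.0437 and 0.424 ± 0.331 in skin. The part of such cells in the Igfbp6 level was not tested.

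Igfbp3, the main carrier of IGF in blood, was also highest in skin. It lies at chr11:7206091-7213923 (minus strand). Its level was 427, 1148 and 611 CPM in skin 1, 2 and 3, 268, 209 and 291 in thymus, and 146, 198 and 139 in bone. The 3 tissues did not overlap, although skin 2 was far above the other skin libraries and bone 2 came close to thymus 2. Igfbp3 was lower in thymus than skin (-1.51 ± 0.32, adjusted p = 0.00391) and lower in bone than skin (-2.18 ± 0.33, adjusted p = 0.000351). On RPKM with no filter the first call was lost (-0.85, adjusted p = 0.0594). Thymus minus bone was 0.67 ± 0.32 and did not pass (adjusted p = 0.132), but it passed without skin 2 (0.67, adjusted p = 0.0266) and with only those 2 tissues in the fit (0.66, adjusted p = 0.0168). Its neighbour Igfbp1, 3544 bases away and known mainly from liver, had 0 reads in all 9 libraries, which allows at most 0.0251 to 0.0440 CPM per library (3 reads; counting error only).

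Igfbp4, which mostly holds IGF back from its receptor, was the most even of the binding proteins (chr11:99041260-99052643, plus strand). It was at 2078, 1518 and 1516 CPM in thymus 1-3, 2 and 3, 1324, 1040.2 and 1048 in bone, and 739, 925 and 1216 in skin. Thymus was above both other groups without overlap, and bone and skin overlapped. It was higher in thymus than skin (0.83 ± 0.21, adjusted p = 0.0079). The thymus to bone difference (0.58 ± 0.21, adjusted p = 0.0484) lay at the threshold and was lost in 12 of 20 alternative analyses, with adjusted p up to 0.318. Those 12 include leaving out thymus 1-3 (0.40, adjusted p = 0.186), bone 2 (0.53, adjusted p = 0.141) and bone 3 (0.53, adjusted p = 0.139). Bone minus skin was 0.24 ± 0.21 (adjusted p = 0.358), and was called with library size alone (0.93, adjusted p = 0.00135) and on RPKM (0.81, adjusted p = 0.00304).

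**Figure D2:**
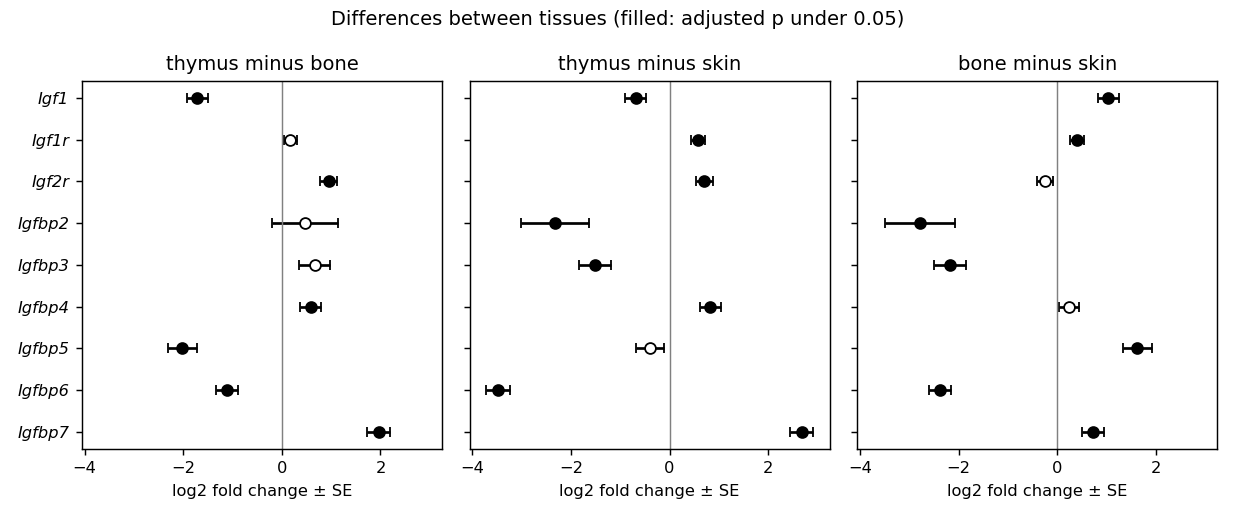
Log2 fold change ± SE of each member in the 3 comparisons (thymus minus bone, thymus minus skin, bone minus skin); filled points passed an adjusted p under 0.05 and open points did not. Igfbp6 lies below 0 in all 3 comparisons and Igfbp7 above 0 in all 3, while Igf1r stays within 0.58 of 0.

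Within a library, the make-up of the binding proteins can be read with no scaling between libraries. Of the summed RPKM of the 6 Igfbp members, Igfbp7 held 48.1, 65.3 and 56.7% in thymus 1-3, 2 and 3 (56.7 ± 8.60%, SD, n = 3), against 16.5 ± 0.792% in bone and 9.80 ± 1.78% in skin. Igfbp5 held 50.2, 54.9 and 53.4% in bone 1, 2 and 3 (52.9 ± 2.38%), against 11.3 ± 4.49% in thymus and 17.0 ± 3.80% in skin. Igfbp6 held 49.3, 42.8 and 50.1% in skin 1, 2 and 3 (47.4 ± 3.98%), against 9.26 ± 0.798% in bone and 3.79 ± 1.02% in thymus. In each tissue the leading protein was thus the same in all 3 libraries, and no library of another tissue came near its share. Igfbp4 came next in thymus (25.0 ± 3.43%) and bone (19.1 ± 2.24%), and in skin it lay at 15.7 ± 2.12%, beside Igfbp5. Igfbp3 held 3.19 ± 0.535%, 2.27 ± 0.416% and 9.90 ± 4.03% in thymus, bone and skin, and Igfbp2 at most 0.232% in any library. With 3 libraries against 3 an exact permutation test cannot go below 0.10, so these shares carry no test. They depend on the gene length used: with exon lengths from GENCODE vM21, the leading shares were 64.6% for Igfbp7 in thymus, 58.0% for Igfbp5 in bone and 57.3% for Igfbp6 in skin, and those of Igfbp4 were 14.0, 10.1 and 7.67%. With those lengths Igfbp4 was no longer next in bone, where Igfbp7 (17.8%) and Igfbp6 (12.1%) were above it. In skin Igfbp5 (17.3%) was above it. Igfbp5 was also above Igfbp4 in thymus 1-3 (18.2 against 16.5%) and thymus 3 (14.0 against 12.7%), but not in thymus 2 (7.43 against 12.7%).

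**Figure D3:**
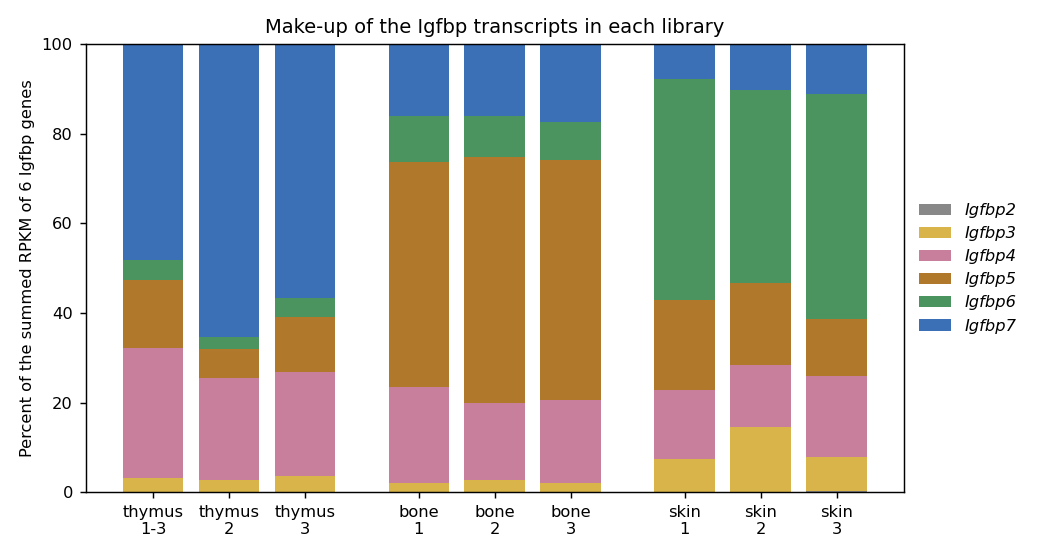
Share of the summed Igfbp RPKM held by each of 6 binding proteins in each library, as stacked bars that add to 100%. Igfbp7 takes the largest share in the 3 thymus libraries, Igfbp5 in the 3 bone libraries and Igfbp6 in the 3 skin libraries.

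By mean deposited RPKM, the order in thymus was Igfbp7 (1886 ± 233), Igfbp4 (835 ± 136), Igfbp5 (379 ± 159), Igfbp6 (127 ± 37.0), Igfbp3 (106 ± 19.3), Igf2r (61.2 ± 3.34), Igf1 (34.3 ± 7.90), Igf1r (7.59 ± 0.490) and Igfbp2 (0.828 ± 0.303). The neighbours Igfbp6 and Igfbp3 overlapped there. In bone it was Igfbp5 (1543 ± 118), Igfbp4 (556 ± 66.9), Igfbp7 (481 ± 8.33), Igfbp6 (271 ± 32.0), Igf1 (112 ± 1.20), Igfbp3 (66.7 ± 15.2), Igf2r (31.7 ± 3.37), Igf1r (6.71 ± 0.683) and Igfbp2 (0.596 ± 0.345). Every neighbouring pair was separate in bone. In skin it was Igfbp6 (962 ± 164), Igfbp5 (339 ± 49.5), Igfbp4 (321 ± 80.7), Igfbp3 (204 ± 95.7), Igfbp7 (203 ± 64.8), Igf1 (37.5 ± 9.93), Igf2r (25.6 ± 5.21), Igf1r (3.48 ± 0.610) and Igfbp2 (2.80 ± 2.29). There Igfbp5 overlapped Igfbp4, Igfbp4 overlapped Igfbp3, Igfbp3 overlapped Igfbp7, Igf1 overlapped Igf2r and Igf1r overlapped Igfbp2. Igfbp6 ranked 30th of 17008 genes in skin and Igfbp5 14th of 16805 in bone.

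The balance of ligand, receptor and binding protein transcripts differed between the tissues as well, while protein was not measured. The RPKM of Igf1 was 5.20, 3.09 and 5.42 times that of Igf1r in thymus 1-3, 2 and 3, 17.9, 15.2 and 17.5 times in bone, and 11.3, 11.7 and 9.04 times in skin, with no overlap. Igf1 per 100 RPKM of binding proteins was 1.02 ± 0.216 in thymus, 3.86 ± 0.195 in bone and 1.93 ± 0.814 in skin. Bone was above all other libraries on this measure, and skin 3 (1.19) came close to thymus 3 (1.18). The ratio of Igf2r to Igf1r was 8.06 ± 0.0812 in thymus and 4.73 ± 0.370 in bone, which did not overlap, and 7.37 ± 1.19 in skin.

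Other genes of the axis were read from a list of 50, of which 46 were tested. Between thymus and bone 15 were higher in thymus, 7 lower and 24 did not pass, where 16.5 and 16.1% of all genes were higher and lower. Between thymus and skin the counts were 14, 14 and 18 (19.3 and 18.3% of all genes higher and lower), and between bone and skin 8, 14 and 24 (23.7 and 23.4%). The splits against skin depended on the scaling: with library size alone 25 were higher and 4 lower in thymus than in skin, and bone against skin gave 26 and 6. The median size of the list's log2 differences was 0.48, 0.77 and 0.43, and that of all genes 0.55, 0.63 and 0.76.

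Igf2, the second ligand, which binds the product of Igf2r, was at 775, 808 and 671 CPM in bone, 498, 727 and 125 in skin, and 239, 92.7 and 173 in thymus. It was lower in thymus than bone (-2.16 ± 0.55, adjusted p = 0.0142), a call lost without thymus 2 (-1.86, adjusted p = 0.0602) or thymus 3 (-2.17, adjusted p = 0.0507). Thymus minus skin was -1.42 ± 0.54 and did not pass (adjusted p = 0.065), and it passed without skin 3, the lowest skin library (-1.86, adjusted p = 0.00195), and with DESeq2 (-1.44, adjusted p = 0.0244). As for Igf1, Igfbp3, Igfbp5 and Igfbp6, thymus 2 was the lowest thymus library. Ghr, the growth hormone receptor that drives Igf1 in liver, was at 72.5 ± 14.7, 82.4 ± 6.30 and 138 ± 42.3 CPM in thymus, bone and skin, an order unlike that of Igf1. It was lower in thymus than skin (-0.93 ± 0.21, adjusted p = 0.00432) and lower in bone than skin (-0.74 ± 0.21, adjusted p = 0.0119), and with library size alone neither was called (-0.30 and -0.06). Socs2, a feedback inhibitor of growth hormone signalling, was at 47.2 ± 5.95, 28.2 ± 6.03 and 21.3 ± 3.14 CPM in the same order, higher in thymus than bone (0.74 ± 0.19, adjusted p = 0.00973) and in skin (1.14 ± 0.19, adjusted p = 0.000553).

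Of the proteases that cut the binding proteins and their inhibitors, 6 were tested, and 3 were higher and 2 lower in thymus than in skin, against 19.3 and 18.3% of all genes. Pappa, whose product cleaves Igfbp4 and Igfbp5, was at 39.0, 33.4 and 41.5 CPM in thymus, 25.9, 21.1 and 29.0 in bone, and 0.483, 0.689 and 0.346 in skin, where it had 30 to 47 reads. Skin was far below both other tissues (thymus minus skin 6.24 ± 0.27, adjusted p = 3.49e-08, and bone minus skin 5.66 ± 0.27, adjusted p = 8.68e-08). The thymus to bone difference was small (0.58 ± 0.21, adjusted p = 0.0499) and was lost in 13 of 20 alternative analyses, leaving out each of thymus 1-3, 2 and 3, bone 1, 2 and 3 and skin 1 among them. Its relative Pappa2, whose product cleaves Igfbp3 and Igfbp5, ran the opposite way, at 3.68, 3.31 and 2.80 CPM in thymus, 9.30, 13.0 and 15.5 in bone, and 40.1, 49.1 and 18.2 in skin. No groups overlapped, and Pappa2 was lower in thymus than bone (-1.95 ± 0.33, adjusted p = 0.000984) and skin (-3.46 ± 0.35, adjusted p = 1.98e-05), and lower in bone than skin (-1.51 ± 0.32, adjusted p = 0.00281; -0.83 and adjusted p = 0.0637 on RPKM plus 0.1). In RPKM the 2 proteases stood at 3.51 ± 0.448 against 0.383 ± 0.0366 in thymus, 2.34 ± 0.325 against 1.49 ± 0.385 in bone, and 0.0313 ± 0.00973 against 2.87 ± 1.22 in skin (Pappa first). The ranking of the pair was thus Pappa above Pappa2 in every thymus and bone library and Pappa2 above Pappa in every skin library.

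Adam12, a further protease of binding proteins, was highest in thymus at 139 ± 24.6 CPM, with 66.2 ± 16.2 in bone and 54.6 ± 7.90 in skin. It was higher in thymus than bone (1.07 ± 0.19, adjusted p = 0.00128) and skin (1.34 ± 0.19, adjusted p = 0.000211). Htra1, a secreted serine protease reported to cut Igfbp5, was at 635 ± 50.5, 444 ± 40.3 and 1243 ± 156 CPM, with bone lower than skin (-1.49 ± 0.15, adjusted p = 1.08e-05). The stanniocalcins Stc1 and Stc2 encode inhibitors of the Pappa proteases. Stc1 was at 15.4, 7.22 and 7.73 CPM in thymus, 9.79, 5.24 and 2.18 in bone, and 0.742, 3.15 and 2.09 in skin. It was higher in thymus than skin (2.35 ± 0.63, adjusted p = 0.0134), while thymus minus bone (0.82 ± 0.60, adjusted p = 0.333) and bone minus skin (1.53 ± 0.61, adjusted p = 0.0628) did not pass. The latter passed with DESeq2 (1.54, adjusted p = 0.0214), without bone 3 (1.92, adjusted p = 0.0215) and without skin 2 (2.02, adjusted p = 0.0452). Stc2 was at 6.75, 3.02 and 3.45 CPM in thymus and 7.86, 8.87 and 8.79 in skin. It had 0 counted reads in bone 1 and bone 3 and 238 reads (2.03 CPM) in bone 2. The deposited RPKM of Stc2 was 0 in bone 1 but 0.0919 in bone 3. None of its comparisons passed, with adjusted p = 0.189 for thymus minus bone, 0.63 for thymus minus skin and 0.0728 for bone minus skin. Without bone 2 both comparisons with bone passed (adjusted p = 1.66e-05 against thymus and 8.29e-06 against skin), as they did with limma in each of the 3 fits on RPKM (adjusted p = 0.00275 to 0.0105 and 0.000349 to 0.00229). Thymus minus skin passed with only those 2 tissues in the fit (-0.95, adjusted p = 0.0424).

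**Figure D4:**
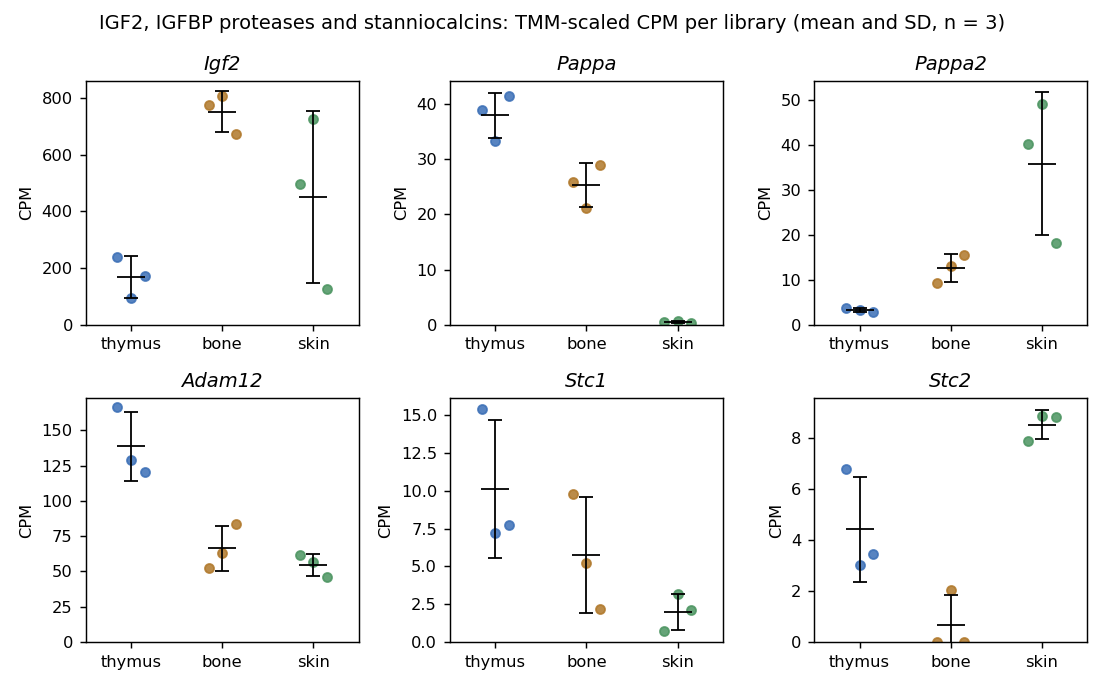
Level in CPM (linear axis from 0, a panel per gene) of Igf2, Pappa, Pappa2, Adam12, Stc1 and Stc2 in the 9 libraries; points are libraries and bars the mean ± SD. Pappa lies at 21.1 to 41.5 in thymus and bone and at 0.689 or less in skin, and Pappa2 at 3.68 or less in thymus and at 18.2 or more in skin.

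Downstream of the receptors, 7 adaptors were tested. Of these, 4 were lower and none higher in thymus than in skin (18.3% of all genes were lower). Bone against skin gave 4 lower and none higher (23.4% lower), and thymus against bone 2 lower and 1 higher (16.1 and 16.5%). With library size alone the counts were 2 lower and 2 higher for thymus against skin and 1 lower and 3 higher for bone against skin, so the family has no direction that holds under both scalings. Irs1, which links Igf1r to PI3K, was at 40.9 ± 6.56, 49.0 ± 9.39 and 95.8 ± 16.4 CPM in thymus, bone and skin (thymus minus skin -1.23 ± 0.18, adjusted p = 0.000248, and bone minus skin -0.97 ± 0.18, adjusted p = 0.000973). The bone to skin call for Irs1 was lost with library size alone (-0.28, adjusted p = 0.237). Thymus minus bone for Irs1 was -0.26 ± 0.18 (adjusted p = 0.298). Irs2, its relative, was at 36.3 ± 6.80, 95.3 ± 9.27 and 70.5 ± 11.6 CPM, lower in thymus than bone (-1.39 ± 0.17, adjusted p = 7.27e-05). Grb10, an inhibitor of both receptors for IGF and insulin, was at 359 ± 20.4, 262 ± 24.7 and 712 ± 99.97 CPM, with bone lower than skin (-1.44 ± 0.15, adjusted p = 1.32e-05). Grb14, of the same family, was at 0.927 ± 0.525, 5.63 ± 0.865 and 6.49 ± 0.300 CPM and lower in thymus than in both.

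The insulin receptor Insr was at 36.1, 40.1 and 35.4 CPM in thymus, 45.1, 51.1 and 51.6 in bone, and 63.3, 59.3 and 52.7 in skin. It was lower in thymus than bone (-0.41 ± 0.13, adjusted p = 0.0285; lost without thymus 1-3, thymus 3, bone 2 or bone 3, adjusted p = 0.053 to 0.0949) and skin (-0.65 ± 0.13, adjusted p = 0.00165; -0.02 with library size alone). Its bone minus skin difference was -0.25 ± 0.13 (adjusted p = 0.131) and turned positive with library size alone (0.44, adjusted p = 0.0167). Insrr, the insulin receptor-related receptor, was at 6.65, 6.89 and 8.67 CPM in thymus and at most 0.631 in any other library (thymus minus bone 4.64 ± 1.16, adjusted p = 0.0111, and thymus minus skin 4.78 ± 1.17, adjusted p = 0.00859). Pik3cb, a catalytic subunit of PI3K, was at 1.94 ± 0.348, 10.4 ± 3.89 and 2.40 ± 0.0836 CPM and higher in bone than skin (2.11 ± 0.35, adjusted p = 0.000442), with thymus lower than bone (-2.42 ± 0.36, adjusted p = 0.000277). Foxo1, a transcription factor held in check by AKT, was at 60.5 ± 7.44, 141 ± 22.6 and 104 ± 4.31 CPM, lower in thymus than bone (-1.22 ± 0.14, adjusted p = 5.8e-05).

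For the 5 members whose tissue means span at least 4-fold, the genes with the most similar profile over the 9 libraries were taken by the root mean square distance of log2 levels, each centred on its own mean, among 6505 genes with a mean of at least 20 CPM over the 9 libraries. The distance is in log2 units, and the libraries of a tissue share their source, so this is a description. Igfbp7 was nearest to Nfkbie (0.17), an inhibitor of NF-kB, at 94.1 ± 10.3, 24.2 ± 2.01 and 18.1 ± 5.24 CPM in thymus, bone and skin, then to Crispld2 (0.21) and Ptk7 (0.21). Igfbp5 was nearest to Sort1 (0.26), a sorting receptor, at 9.73 ± 2.88, 35.7 ± 0.474 and 15.1 ± 2.66 CPM, then to the proprotein convertase gene Pcsk6 (0.27) and the growth factor receptor gene Fgfr2 (0.28). Igfbp6 was nearest to Mgll (0.27), a lipase, at 26.9 ± 12.2, 49.4 ± 2.39 and 220.4 ± 6.98 CPM, then to the prostaglandin-degrading enzyme gene Hpgd (0.30) and the oestrogen receptor gene Esr1 (0.31). Igfbp3 was nearest to Spock2 (0.27), Loxl4 (0.29) and Gaa (0.29). Igfbp2 was least closely matched, by Trex1 (0.39) and the interferon-inducible genes Gbp2 (0.43) and Ifi204 (0.50), each of which was highest in skin 3 as Igfbp2 was, at 121, 285 and 383 CPM there.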

How the data were processed

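RNA-seq of 9 libraries was deposited as 2 tables per library. The deposited counts are whole reads per gene symbol, with 5 summary lines (5.05 to 14.8% of the counted reads) left out here. The deposited RPKM, made by the authors, comes with mm10 coordinates. Igfbpl1 in thymus 1-3 and Stc2 in bone 3 had an RPKM above 0 but no reads in the counts. Counts and RPKM therefore did not treat all reads alike. Tools named in the submitters' processing notes are CASAVA 1.8.2 and HTSeq 0.5.4, with mm10 as the build. Not given in the sources used here are aligner, annotation and strandedness.

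The quasi-likelihood test of edgeR 4.0.16 (R 4.3.3) was run on the counts (robust, TMM, filterByExpr by tissue). All 9 libraries were in 1 fit of 15635 genes, with Benjamini-Hochberg adjustment over all of them. An approximate SE was worked out as the size of the log2 fold change divided by the root of F. The TMM factors of skin (0.701 to 0.77) lay below those of thymus (1.104 to 1.179) and bone (1.161 to 1.233). Replicates were compared by chi-square per degree of freedom (96.3 to 306.5), so none looked like a copy of another.

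Shares and orders between genes use RPKM. The genes named are all 9 members, axis genes past the threshold at 2-fold or more with no overlap (up to 3 per sub-list and comparison, so not all of them appear), and Igf2, Ghr, Insr, Pappa, Stc1, Stc2 and Irs1. Members, lists and markers were chosen with earlier results of these data known. Promoter sequences are from RefSeq (GRCm38.p6), and each of the 9 members matched. Alternatives tried: library size alone, upper quartile or RLE factors, no filter, 1 CPM in 3 libraries, DESeq2 1.42.0, limma 3.58.1 on log2 of RPKM plus 1 (also unfiltered) or plus 0.1, the replicate number as a block, only the 2 tissues compared, and each library left out.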

Additional observations from a re-analysis of the deposited data

How the results depend on the processing

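Of 540 comparisons of a single member with an alternative, 489 kept direction and side of the threshold, 36 lost the call, 7 gained it and 8 changed sign, all 8 in differences from skin that had not been called. Igfbp5 in thymus minus skin was 0.24 with library size alone and 0.0707, 0.0706 and 0.0707 on RPKM plus 1, plus 0.1 and plus 1 unfiltered. Igf2r in bone minus skin was 0.45 with library size alone, 0.31 on RPKM plus 1, 0.32 on RPKM plus 0.1 and 0.31 unfiltered, and Insr, an axis gene, was 0.44, 0.25, 0.30 and 0.25 in the same fits. Members lower in thymus than in skin numbered 2 in place of 4 with library size alone, 2 on RPKM plus 1, 2 on RPKM plus 0.1, 1 on RPKM plus 1 unfiltered and 2 with the replicate block. With GENCODE exon lengths the share of Igfbp5 in bone was 57.98% and that of Igfbp6 in skin 57.28%.

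Leaving out each library, the members higher and lower numbered 2 to 3 and 3 to 3 for thymus against bone, 4 to 4 and 3 to 4 for thymus against skin, and 3 to 4 and 3 to 3 for bone against skin. Cases of a member apart in a tissue numbered 5 (without skin 3) to 7, and the shares were 52.4 to 61.0% for Igfbp7 in thymus, 51.8 to 54.2% for Igfbp5 in bone and 46.1 to 49.7% for Igfbp6 in skin.

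The labels do not say whether replicate numbers pair the samples. Deviations from the tissue mean correlated at -0.068 to 0.092 for same-numbered libraries of different tissues, and at -0.116 to 0.062 for the others. Such weak values show no pairing, but they cannot exclude a shared animal or day. A fit with the replicate number as a block cannot decide this either. The thymus library of unexplained name shares its number with no other library, so the block absorbs it. Thymus comparisons in that fit rest on the other thymus libraries, and calls lost there need not reflect pairing. With the replicate block 4 calls of members were lost: Igfbp4 in thymus minus bone (0.39, adjusted p = 0.318), and in thymus minus skin Igf1 (-0.72, adjusted p = 0.0774), Igfbp2 (-2.30, adjusted p = 0.0513) and Igfbp4 (0.65, adjusted p = 0.0739). Of the axis calls printed, it ended in thymus minus bone those of Igf2 (adjusted p = 0.0621), Pappa (0.201), Insr (0.119), Insrr (0.0741) and Nagpa (0.0739), and in thymus minus skin those of Ghr (0.0588) and Stc1 (0.0839).

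Axis genes higher and lower in thymus than in skin numbered 25 and 4 with library size alone, 24 and 7 on RPKM plus 1, 24 and 7 on RPKM plus 0.1, and 23 and 6 unfiltered. For bone against skin the counts were 26 and 6, 21 and 7, 21 and 6, and 20 and 6, and 5 were higher without skin 1. Those higher in thymus than in bone numbered 6 with the block and 9 without bone 3. Over all genes, library size alone gave 7219 higher and 1239 lower in thymus than in skin (3013 and 2865 with TMM), and 7474 and 1391 in bone (3702 and 3661). Counts were low for Pappa in skin (30 to 47 reads) and for Igfbp2 (52 to 876 reads in a library), which limits their precision.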

Other observations

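Other axis genes that differed by at least 2-fold without overlap add to the picture of each tissue. Igf2bp2, whose product binds Igf2 mRNA, was at 70.7, 79.9 and 55.9 CPM in skin 1, 2 and 3 and at most 30.2 in any other library (thymus minus skin -1.53 ± 0.19, adjusted p = 6.17e-05, and bone minus skin -1.83 ± 0.19, adjusted p = 1.43e-05, edgeR). Akt2, an AKT kinase, was at 134 ± 33.7, 86.4 ± 3.48 and 250.3 ± 31.2 CPM in thymus, bone and skin (bone minus skin -1.53 ± 0.17, adjusted p = 2.71e-05). Pik3r2, a regulatory subunit of PI3K, was at 104 ± 7.55, 73.9 ± 8.15 and 175 ± 25.5 CPM (bone minus skin -1.25 ± 0.14, adjusted p = 2.96e-05). Nagpa, which uncovers the mannose 6-phosphate tag read by the product of Igf2r, was at 30.6 ± 3.33, 13.6 ± 4.72 and 15.4 ± 4.60 CPM (thymus minus bone 1.17 ± 0.27, adjusted p = 0.00621). Igfbpl1, a protein related to the binding proteins, had 0 counted reads in all 9 libraries, as Igfbp1 had. Its deposited RPKM was 0.00089 in thymus 1-3.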
